A study of Homo sapiens with 13 samples.

Results

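The spliceosomal U snRNA genes encode the small nuclear RNAs at the core of the machinery that removes introns. The genes described here were chosen by symbol (RNU1-1, RNU1-2, RNU4-1, RNU4-2, RNU5A-1, RNU5B-1, RNU11, RNU12, RNU4ATAC and RNU6ATAC), that is 10 of 59098 annotated genes on chromosomes 1 to 22 and X. A peak was assigned to a gene when it overlapped the RefSeq span or the 2 kb on either side by at least 1 bp. All 10 carry the RefSeq class snRNA, with spans of 117 to 164 bp. The peaks measure DNA-RNA hybrids and not transcripts, so the expression of these genes was not checked.

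The signal came from DRIP-seq, in which the S9.6 antibody pulls down DNA-RNA hybrids from sonicated genomic DNA, in the human osteosarcoma line U2OS. The cells had received siCtrl (genotype label WT), an siRNA against REXO4 or an siRNA against RNaseH1; neither the siRNA dose nor the time after transfection is stated. Each transfection had 3 S9.6 IP libraries, merged by the authors into 1 peak list. The labels do not say whether those 3 libraries came from separate cultures. An input library per transfection and 1 siCtrl IgG library complete the 13 samples and were not analysed here. Every value below is a pooled one without error between replicates, the transfections were not tested against each other, and the read depth is unknown. Peaks check neither the knockdowns nor the cell line label. RNaseH1 degrades the RNA strand of a DNA-RNA hybrid, and REXO4 belongs to a family of exonucleases. The series asks whether the 2 proteins process R-loops in the same regions.

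An R-loop forms when RNA pairs with its template strand and leaves the other DNA strand single. U1 snRNA recognises the start of an intron, U4 holds U6 inactive until the spliceosome is activated, and U5 aligns the exons. A minor class of introns is removed with U11, U12, U4atac and U6atac in place of U1, U2, U4 and U6, while U5 serves both classes. Most U snRNA genes are short, intronless and transcribed at high rates by RNA polymerase II from promoters that carry an octamer element and a proximal sequence element. The U6 and U6atac genes use RNA polymerase III.

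The RefSeq promoter table (GRCh38.p14, the coordinates of hg38) matched 0 of the 10 U snRNA genes by symbol. It held the upstream sequence of protein-coding neighbours, and those of 2 neighbours are shown because peaks of all the lists covered one and no peak covered the other. Capitals mark the octamer ATGCAAAT, searched on both strands (ATTTGCAT on the other). The SIRT4 window, the 250 bases before a start of that gene on the + strand (chr12:120291939-120292188), begins 35 bp beyond RNU4-2 and lies between RNU4-2 and RNU4-1. The POLDIP3 window, upstream of that gene on the - strand (chr22:42614884-42615133), ends 110 bp from RNU12.
SIRT4 upstream: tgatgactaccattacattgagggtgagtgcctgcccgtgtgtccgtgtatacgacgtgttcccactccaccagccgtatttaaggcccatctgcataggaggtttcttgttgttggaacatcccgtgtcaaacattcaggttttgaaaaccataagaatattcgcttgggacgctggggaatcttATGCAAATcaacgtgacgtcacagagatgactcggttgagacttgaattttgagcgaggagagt
POLDIP3 upstream: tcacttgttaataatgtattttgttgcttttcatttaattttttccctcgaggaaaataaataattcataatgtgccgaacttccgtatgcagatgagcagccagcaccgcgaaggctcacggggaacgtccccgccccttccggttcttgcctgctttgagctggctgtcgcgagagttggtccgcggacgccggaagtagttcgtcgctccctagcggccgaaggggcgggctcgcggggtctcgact
The SIRT4 window holds 1 octamer, at base 187 counted from its 5′ end (chr12:120292125-120292132), and has a GC content of 47.2%. The POLDIP3 window holds no such run of letters on either strand and has a GC content of 54.0%. Of 35116 upstream windows of 250 bases in the table, 573 (1.63%) hold the octamer on either strand, and their median GC content is 58.0%. The siREXO4 and siRNaseH1 peaks at the U4 genes covered all 250 bases of the SIRT4 window and the siCtrl peak covered 164 of them, the octamer included. No peak of any list covered a base of the POLDIP3 window. A match of these letters is a description and not a measured binding site. The 2 windows were chosen by peak coverage, so they cannot show whether the octamer goes with a peak. Windows of other neighbours are not shown.

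On chromosomes 1 to 22 and X the lists held 4458 siCtrl, 12687 siREXO4 and 20954 siRNaseH1 peaks. Their median fold enrichment at the summit was 4.83, 4.98 and 5.11, and their median width 336, 383 and 394 bp. The fold is the authors' value over the peak caller's local background and ranks peaks within its own list. The fold and p columns together give back how many fragments lay at each summit. The lowest background in a list, taken as its genome-wide level, was 1.28 (siCtrl), 1.41 (siREXO4) and 1.36 (siRNaseH1) fragments. To set lists side by side, fragment numbers were scaled to the siCtrl background. The lowest number called at that background in siCtrl was 7 fragments.

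Hybrid peaks were found at most of these genes in both knockdowns. A siCtrl peak was present at 5 of 10 genes, a siREXO4 peak at 9 and a siRNaseH1 peak at 8. The exact binomial (Clopper-Pearson) 95% intervals were 18.7 to 81.3%, 55.5 to 99.7% and 44.4 to 97.5%, which cover counting error only. By the same rule a siCtrl peak was present at 5.92% of all annotated genes, a siREXO4 peak at 16.4% and a siRNaseH1 peak at 19.0%. Among the 6985 genes of at most 200 bp the shares were 3.56%, 6.91% and 9.71%. Among the 144 other RefSeq snRNA genes they were 16.0%, 28.5% and 27.8%. Protein-coding genes, 19974 in all, gave 11.98%, 33.7% and 39.17%. The share of the 10 genes was above each of these backgrounds in every list, as a description with no test. The genes most alike, 24 other U snRNA genes chosen by symbol, held a siCtrl peak at 5, a siREXO4 peak at 17 and a siRNaseH1 peak at 17. Peaks at most genes in each knockdown were thus not particular to the 10. RNU4-1 and RNU4-2 lie side by side and share their peaks; counted once, 4, 8 and 7 of 9 loci held a peak. With each list limited to the 4458 peaks of lowest p, the counts were 5, 6 and 5, beside 5.92%, 8.82% and 8.00% of all genes.

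**Figure D1:**
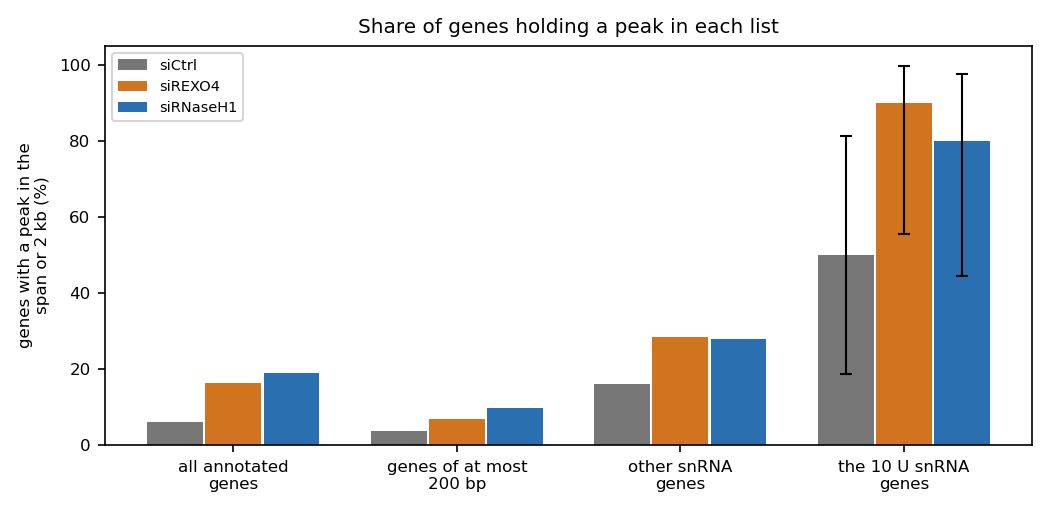
Share of genes (%, vertical axis) with a peak in the span or the 2 kb flanks, for all annotated genes, genes of at most 200 bp, other RefSeq snRNA genes and the 10 U snRNA genes, by list. Error bars on the 10 genes are exact binomial 95% intervals. The bars of the 10 genes stand at 50%, 90% and 80%, above the other gene classes shown. The 24 other U snRNA genes chosen by symbol have no bars of their own.

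The genes fell into 4 patterns of presence. RNU1-1, RNU1-2, RNU4-1, RNU4-2 and RNU4ATAC held a peak in all 3 lists (5 of 10, against 3.93% of all genes and 12.5% of the other snRNA genes). RNU5A-1, RNU11 and RNU12 held a peak in both knockdowns and none in siCtrl (3 of 10, against 8.78% and 10.4%). RNU5B-1 held a peak in siREXO4 alone. RNU6ATAC held none in any list, as did 76.4% of all genes and 65.3% of the other snRNA genes. Both knockdowns share the siCtrl list as their comparison, so the patterns of the knockdowns are not independent of each other.

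**Figure D2:**
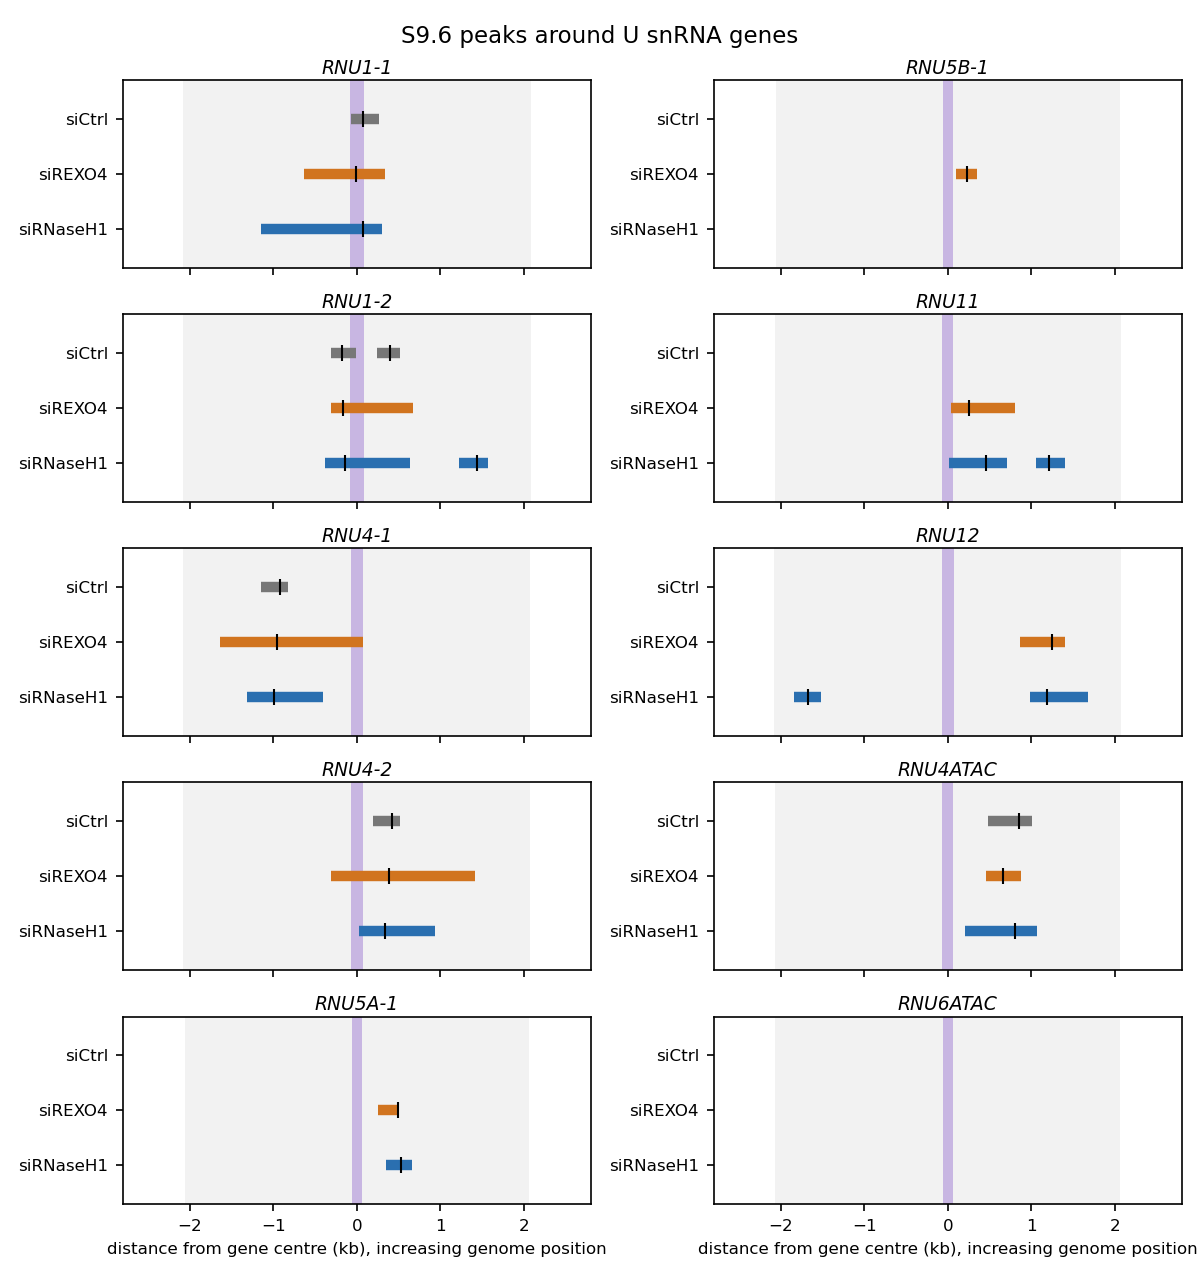
Peaks of each list (coloured bars, black tick at the summit) around each U snRNA gene, as distance in kb from the gene's centre in the direction of increasing genome position. The purple band is the gene and the grey band the 2 kb flanks; the siREXO4 peak of 1716 bp at the U4 pair spans both genes, and the RNU6ATAC panel holds no peak.

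Peaks lay over the snRNA sequence itself at fewer genes. A siCtrl peak overlapped the span at 2 genes (RNU1-1 and RNU1-2), a siREXO4 peak at 5 (these, RNU4-1, RNU4-2 and RNU11) and a siRNaseH1 peak at 4 (the same as siREXO4 without RNU4-1). The shares of all genes with a peak over the span were 4.62%, 13.2% and 15.2%, those of genes of at most 200 bp were 1.19%, 2.12% and 2.75%, and those of the other snRNA genes 11.8%, 20.1% and 20.1%. The summit lay inside the transcribed span at RNU1-1 alone, and there in all 3 lists. At RNU5A-1, RNU5B-1, RNU12 and RNU4ATAC, each peak lay wholly in a flank. The gene table has no strand column, so upstream and downstream were not told apart, and sides are given as lower or higher genome positions.

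Of the 10 genes, the U1 gene RNU1-2 had the highest fold in the siCtrl and the siRNaseH1 list. RNU1-1 (chromosome 1, 16514122 to 16514285) had folds of 4.35 (siCtrl), 9.67 (siREXO4) and 13.01 (siRNaseH1). Within their lists these folds stood at percentiles 25.7, 90.3 and 95.1, so the gene was below the middle of the siCtrl list and above 90% of the peaks in both knockdown lists. The peak was 332 bp wide in siCtrl, 965 bp after REXO4 and 1445 bp after RNaseH1 knockdown, and the siCtrl peak lay wholly inside both others. The added width lay mostly at lower genome positions, where the siRNaseH1 peak began at 16513063 and the siCtrl peak at 16514134. The summit held 14 fragments in siCtrl. Scaled to the siCtrl background it held 33.5 in siREXO4 (95% Poisson interval 23.6 to 46.2) and 41.4 in siRNaseH1 (30.1 to 55.5), against 7.7 to 23.5 in siCtrl. The siRNaseH1 interval was clear of the siCtrl one, and the siREXO4 interval began just above its upper end. These intervals cover counting error alone, and a summit is by construction the highest point of a peak.

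RNU1-2 (chromosome 1, 16895980 to 16896143) had folds of 7.45 (siCtrl), 8.23 (siREXO4) and 14.87 (siRNaseH1). The siCtrl list held 2 separate peaks here, of 303 bp over the gene and of 277 bp beginning 163 bp beyond it, where each knockdown list held 1 peak of 985 bp (siREXO4) or 1019 bp (siRNaseH1) that joined them. The siREXO4 and siRNaseH1 peaks overlapped by 947 bp, which is 96.1% of the former and 92.9% of the latter, with summits 16 bp apart. A further siRNaseH1 peak of 343 bp and fold 5.15 began 1140 bp beyond the gene with no siCtrl peak under it. Scaled fragments at the leading summit were 23 in siCtrl (14.6 to 34.5), 37.1 in siREXO4 (26.6 to 50.4) and 50.8 in siRNaseH1 (38.1 to 66.3). Here the siREXO4 interval overlapped that of siCtrl and the siRNaseH1 interval did not. The local background at the summit was 2.91 times the genome level in siREXO4, the highest at any leading peak of the 10 genes, against 1.74 in siCtrl and 1.99 in siRNaseH1.

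RNU1-1 and RNU1-2 are 2 of several near-identical U1 genes, so the placement of reads among them is uncertain. How reads that map to several places were treated is not stated. The neighbouring copies RNU1-3 and RNU1-4 also held a peak over the gene in all 3 lists. RNU1-3 had folds of 5.97, 11.34 and 9.53 in siCtrl, siREXO4 and siRNaseH1, and RNU1-4 had 7.53, 11.6 and 8.92. Their summits held 27, 61 and 65 fragments at RNU1-3 and 40, 65 and 64 at RNU1-4, before scaling to the siCtrl background. Of the 21 U1 genes of class snRNA, the RNVU1 variants included, 6 held a siCtrl peak, 15 a siREXO4 peak and 12 a siRNaseH1 peak. RNU1-1 and RNU1-2 are among these 21. The shares of all annotated genes were 5.92%, 16.4% and 19.0%.

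The U4 genes RNU4-2 (chromosome 12, 120291759 to 120291903) and RNU4-1 (120293093 to 120293237) were served by 1 peak per list. Its fold was 4.37 (siCtrl), 12.92 (siREXO4) and 8.26 (siRNaseH1). The siREXO4 value was the highest of the 10 genes in its list (percentile 94.3), and the siCtrl value stood at percentile 27.6. The siCtrl peak was 323 bp wide and lay between the genes, 121 bp from RNU4-2 and 745 bp from RNU4-1. The siREXO4 peak was 1716 bp wide (percentile 98.5 by width), from 120291524 to 120293239, and contained both snRNA genes whole. The siRNaseH1 peak of 908 bp reached 47 bp into RNU4-2 and ended 328 bp short of RNU4-1. The summits of the 3 lists lay within 75 bp of each other, all between the genes and 269 to 344 bp from RNU4-2. The siRNaseH1 summit is base 234 of the SIRT4 window printed above. The siREXO4 and siCtrl summits lie just past the end of that window, inside SIRT4. This gene encodes a mitochondrial sirtuin, and its annotated span begins within RNU4-2 and so includes the window. Hybrids of the U4 and SIRT4 transcripts cannot be told apart here. Scaled fragments were 15.0 in siCtrl (8.4 to 24.7), 31.7 in siREXO4 (22.1 to 44.1) and 22.6 in siRNaseH1 (14.5 to 33.6), so all 3 intervals overlapped.

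The U5 genes RNU5A-1 and RNU5B-1 held narrow peaks, of low fold in siREXO4. RNU5A-1 (chromosome 15, 65296051 to 65296167) had no siCtrl peak, a siREXO4 peak of fold 3.75 and a siRNaseH1 peak of fold 5.07. These peaks were 254 and 308 bp wide, began 197 and 294 bp beyond the gene on the higher side, and shared 157 bp (61.8% and 51.0% of each). RNU5B-1 (chromosome 15, 65304677 to 65304793) had only a siREXO4 peak, 254 bp wide with a fold of 3.89, 37 bp beyond the gene. The siREXO4 folds stood at or below percentile 15.6 of their list, and the siRNaseH1 fold of RNU5A-1 at percentile 46.3. Scaled fragments were 9.1 and 10.0 at these siREXO4 summits and 15.0 at the siRNaseH1 summit, or 1.29, 1.42 and 2.15 times the lowest siCtrl number called. The lower Poisson bounds of the siREXO4 summits, 4.3 and 5.0, were under that number of 7, so no difference from siCtrl can be read from them. U5 genes outside the 10 had higher folds in siRNaseH1, while in siREXO4 only RNU5E-1 did. RNU5E-1 had 18.33 in siREXO4 and 30.96 in siRNaseH1, from peaks that did not overlap the gene. RNU5F-1 had 3.76 and 6.85. RNU5D-1 had 7.61 in siRNaseH1 alone, from a peak that did not overlap the gene.

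Among genes of the minor spliceosome, RNU11 (chromosome 1, 28648600 to 28648734) held peaks in both knockdowns. Its fold was 6.46 in siREXO4 and 4.60 in siRNaseH1, with no siCtrl peak. The siREXO4 peak of 763 bp and the siRNaseH1 peak of 701 bp shared 674 bp, 88.3% and 96.1% of each. They covered 31 and 58 bp at the higher end of the gene and also part of TAF12-DT, a divergent lncRNA of the transcription factor gene TAF12. A separate siRNaseH1 peak of 345 bp had a fold of 3.90. Scaled fragments were 15.4 in siREXO4 (9.0 to 24.6) and 13.2 in siRNaseH1 (7.2 to 22.1), and both lower bounds lay above 7. That number holds only at the lowest siCtrl background. The local background at these summits was 1.27 (siREXO4) and 1.67 (siRNaseH1) times the genome level of the list. The siCtrl fragments here are unknown, so a difference from siCtrl was not tested.

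RNU12 (chromosome 22, 42615244 to 42615393) had a siREXO4 peak of fold 4.73 and 2 siRNaseH1 peaks of fold 5.41 and 4.47. The siREXO4 peak (541 bp) and the weaker siRNaseH1 peak (692 bp) shared 419 bp and began 790 and 912 bp beyond the gene on the higher side, where no other gene is annotated. The stronger siRNaseH1 peak of 323 bp lay 1444 bp away on the lower side, inside POLDIP3 and LOC124905127. It was the peak of the 10 genes nearest to the 2 kb limit. Just outside the limit, 2183 bp from RNU12, lay a siRNaseH1 peak of fold 4.34. Scaled fragments were 13.6 at the siREXO4 peak (7.6 to 22.4), and 17.9 (10.8 to 27.9) and 15.0 (8.6 to 24.4) at the siRNaseH1 peaks.

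RNU4ATAC (chromosome 2, 121530880 to 121531009), the U4 counterpart of the minor class, held 1 peak per list. The fold was 5.83 (siCtrl), 6.16 (siREXO4) and 7.03 (siRNaseH1), at percentiles 81.4, 73.7 and 79.1. The peaks were 520, 417 and 858 bp wide and began 419, 393 and 146 bp beyond the gene on the higher side. They lay inside CLASP1, a microtubule-binding protein gene, and CLASP1-AS1, a lncRNA, both of which contain the snRNA gene. Scaled fragments were 13.0 in siCtrl (6.9 to 22.2), 14.5 in siREXO4 (8.3 to 23.5) and 23.5 in siRNaseH1 (15.2 to 34.7), all overlapping.

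RNU6ATAC (chromosome 9, 134164439 to 134164564) was the only gene of the 10 transcribed by RNA polymerase III and had no peak in its window. The nearest siCtrl peak was 17780 bp away, the nearest siREXO4 peak 17805 bp and the nearest siRNaseH1 peak 138516 bp.

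**Figure D3:**
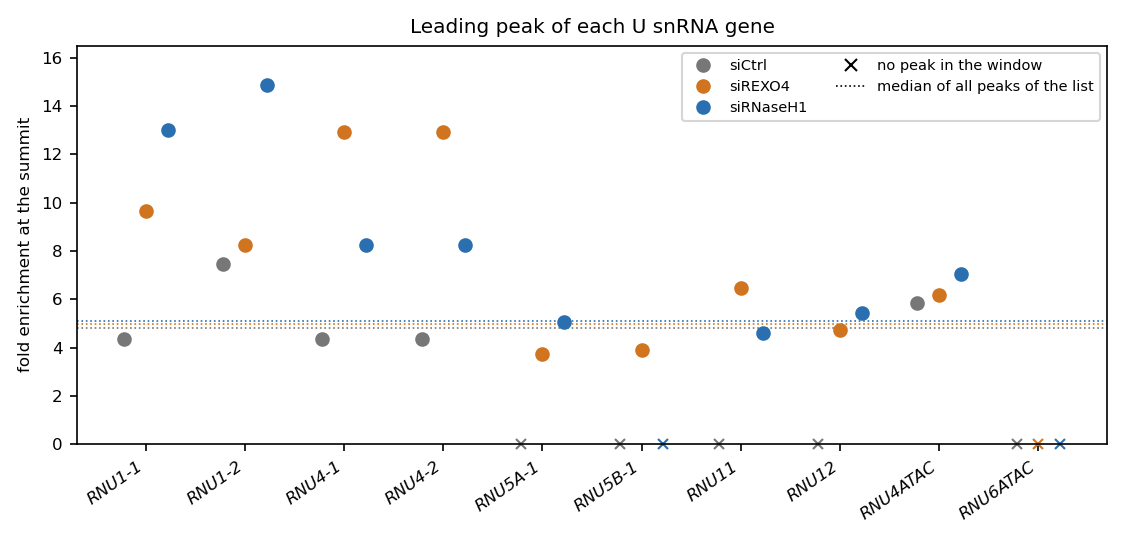
Fold enrichment at the summit (vertical axis, authors' value) of the leading peak of each U snRNA gene in each list; a cross marks no peak and dotted lines the median of each list. U1 and U4 genes stand above 8 in both knockdown lists, while both U5 genes lie below the list medians; RNU4-1 and RNU4-2 share the same peaks.

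Over distinct leading peaks, the median fold was 5.10 for 4 siCtrl peaks, 6.31 for 8 siREXO4 peaks and 7.03 for 7 siRNaseH1 peaks, beside list medians of 4.83, 4.98 and 5.11. The median width was 327.5, 652 and 858 bp, beside 336, 383 and 394 bp in the lists. The leading peaks were thus near the width of the siCtrl list and wider than the median in both knockdown lists. The ranges were wide, from 254 to 1716 bp in siREXO4 and from 308 to 1445 bp in siRNaseH1. In siREXO4 the order by fold was the U4 pair, RNU1-1, RNU1-2, RNU11, RNU4ATAC, RNU12, RNU5B-1 and RNU5A-1. In siRNaseH1 it was RNU1-2, RNU1-1, the U4 pair, RNU4ATAC, RNU12, RNU5A-1 and RNU11. The Poisson intervals of scaled fragments overlapped between all neighbours in these orders except RNU1-2 (26.6 to 50.4) and RNU11 (9.0 to 24.6) in siREXO4.

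**Figure D4:**
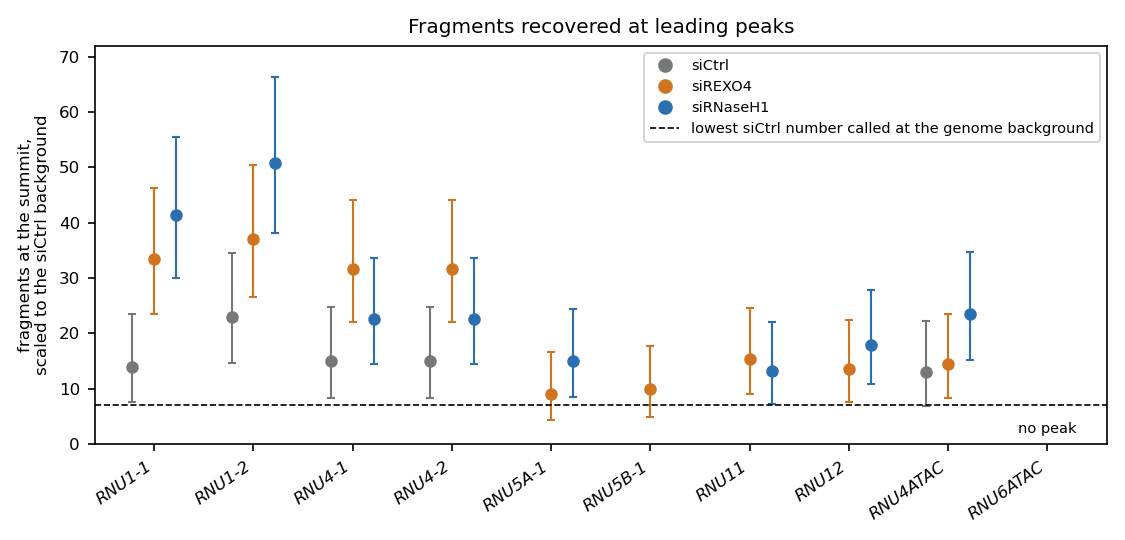
Fragments at the summit of the leading peak, scaled to the siCtrl genome background (vertical axis), with 95% Poisson intervals that cover counting error only; the dashed line is the lowest number called in siCtrl, 7. The intervals of siCtrl and siRNaseH1 are apart at RNU1-1 and RNU1-2 and overlap at RNU4-1, RNU4-2 and RNU4ATAC.

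Knockdown peaks with no siCtrl peak under them are termed gained. A gained siREXO4 peak was present at 4 of 10 genes (RNU5A-1, RNU5B-1, RNU11 and RNU12), against 14.8% of all genes and 16.7% of the other snRNA genes. A gained siRNaseH1 peak was also present at 4 (RNU1-2, RNU5A-1, RNU11 and RNU12), against 17.8% and 19.4%. The summits of these peaks reached 1.29 to 2.55 times the lowest siCtrl number called. With each list at 4458 peaks, 1 of 10 genes held a gained siREXO4 peak (RNU11) and 0 a gained siRNaseH1 peak, which is near the 7.13% and 6.49% of all genes at that length. Which genes count as gained also depends on the threshold. With only peaks of a fold of at least 5 in every list, the siCtrl peaks of RNU1-1 and the U4 pair drop out, and the genes with a peak in both knockdowns and none in siCtrl become RNU1-1, RNU4-1 and RNU4-2 in place of RNU5A-1, RNU11 and RNU12.

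Peaks were rare at the many pseudogene copies of these RNAs. Of 1800 U snRNA pseudogenes in the table, 28 (1.56%) held a siCtrl peak in the span or flanks, 65 (3.61%) a siREXO4 peak and 86 (4.78%) a siRNaseH1 peak. Other pseudogenes of at most 200 bp, 1308 in all, gave 2.52%, 3.06% and 4.20%. By the same rule the 89 U4 pseudogenes gave 2.25%, 8.99% and 5.62%, and the 115 U1 pseudogenes 2.61%, 3.48% and 8.7%. Over the span alone, 0 of the 89 U4 pseudogenes had a peak in any list, and 3, 2 and 5 of the 115 U1 pseudogenes did. Of the 1308 other short pseudogenes, 8, 6 and 5 had a peak over the span, so a count of 0 among 89 is not particular to U4. The similarity of each pseudogene to its parent gene was not measured.

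Other genes of the pathway were counted by the same rule. Those named first from each list are the 3 of highest siRNaseH1 fold among genes with a peak in both knockdowns. Their high siRNaseH1 folds thus come with that choice. Of 24 other U snRNA genes found in the table, 5 held a siCtrl peak, 17 a siREXO4 peak and 17 a siRNaseH1 peak. The shares of all annotated genes were 5.92%, 16.4% and 19.0%. RNVU1-1, a U1 variant gene, had folds of 15.29 in siREXO4 and 30.41 in siRNaseH1 and no siCtrl peak, and the peaks covered the gene whole. RNU2-1, a U2 gene, had 5.37, 15.55 and 15.26 in the 3 lists. At RNU5E-1 the knockdown folds were 18.33 and 30.96, but those peaks did not overlap the gene and covered the pseudogene RNU5E-4P.

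Of 32 genes for snRNA transcription and end processing, 7 held a siCtrl, 18 a siREXO4 and 23 a siRNaseH1 peak, beside 11.98%, 33.7% and 39.17% of protein-coding genes. The genes named next were again chosen by their siRNaseH1 fold. INTS6, a subunit of the Integrator complex that cleaves U snRNA precursors, had folds of 3.97, 17.81 and 32.0. SNAPC5 and SNAPC3, subunits of the complex that binds the proximal sequence element, had 6.06, 7.18 and 17.49, and 4.29, 12.04 and 15.21. The siREXO4 peaks of SNAPC5 lay wholly in the flanks. Not every gene of the list was alike: INTS4 had 9.38, 4.78 and 5.95, and TBP held a siCtrl peak alone (4.13). Of 36 snRNP protein genes, 6, 21 and 25 held a peak, beside the same 11.98%, 33.7% and 39.17% of protein-coding genes. SNRPD2, a core Sm protein gene, had folds of 6.52, 18.81 and 25.15. LSM3 (19.6 and 21.96) and LSM8 (13.75 and 16.76), which encode proteins of the U6 ring, had knockdown peaks and no siCtrl peak.

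The commonest pattern, a peak in all 3 lists, was shared by 18 of the 144 other snRNA genes (12.5%). Ranked by the lowest fold of the 3 lists, the first were LOC124904140 and LOC124904146, which share their peaks (8.56, 14.24 and 12.97), then RNU1-4, LOC124904138 (7.24, 29.07 and 15.27) and LOC124904136 (7.01, 26.31 and 21.75). The 4 LOC genes lie close together on chromosome 17, from 43241180 to 43273292, next to RNU2-1. The likeness is presence over 3 lists only.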

How the data were processed

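DRIP-seq peak lists of U2OS cells were used, 1 list per transfection (siCtrl, siREXO4, siRNaseH1), each from 3 S9.6 IP libraries merged by the authors, per the file names and labels; signals of single replicates, input and IgG were not analysed here. Per the submitters' processing notes, the tools were MACS2 2.1.0.20150731, HISAT2 2.2.1, SAMtools 1.17, Trim Galore 0.6.10, deepTools 3.5.1 and Cufflinks on hg38, with no roles. Which control library was used, and how duplicate and multiply mapped reads were handled, is not given in the sources used here. These narrowPeak lists have no header. Their deposited fold enrichment is a ratio at the summit, beside the deposited −log10 p and an integer score of 10 times the −log10 q, from which q was taken. The lowest score was 13 in each list. A read depth is not given.

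Peaks on chromosomes 1 to 22 and X were joined to RefSeq gene spans (GRCh38.p14). Fragments at a summit were recovered as the whole number that gives both the fold, (fragments + 1) / (background + 1), and the Poisson tail; all peaks with −log10 p below 300 fitted within 0.001. Poisson intervals are exact at 95%. The code was tested on simulated data. SciPy 1.17.1, NumPy 2.4.6, Matplotlib 3.10.9 and pandas 2.3.3 were run under Python 3.11.15. The 10 genes and the gene lists were chosen with earlier results of these data known. All 10 genes are named, with every gene under their peaks, and from each other list the 3 genes of highest siRNaseH1 fold among those with a peak in both knockdowns. Of 103 listed symbols, 102 were found. Alternatives were no flank, a 5 kb flank, the summit in the window, a −log10 q or a fold of at least 5, and equal list length.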

Additional observations from a re-analysis of the deposited data

How the results depend on the processing

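Of 36 alternative counts of genes holding a peak, 25 stayed within 1.5 times the reported count and 11 did not. A count within that range can hold other genes, as at the q and fold thresholds given here. The 22 leading folds were the same when the summit had to lie in the window. Without the 2 kb flanks, 2 genes held a siCtrl peak, 5 a siREXO4 peak and 4 a siRNaseH1 peak, beside 4.62%, 13.2% and 15.2% of all genes. Over the span, 1 gene (RNU11) held a gained peak in each knockdown, beside 11.9% (siREXO4) and 14.2% (siRNaseH1) of all genes, since the window is smaller. A −log10 q of at least 5, and likewise a fold of at least 5, left 2 genes with a siCtrl peak (RNU1-2 and RNU4ATAC), beside 2.42% and 2.86% of all genes. At that q, the genes with a gained siREXO4 peak were RNU1-1, RNU4-1, RNU4-2, RNU11 and RNU12, without RNU5A-1 and RNU5B-1, beside 10.3% of all genes. Those with a gained siRNaseH1 peak were RNU1-1, RNU1-2, RNU4-1, RNU4-2, RNU5A-1 and RNU12, without RNU11, beside 14.3%. At that fold, the genes with a peak in both knockdowns and none in siCtrl were RNU1-1, RNU4-1 and RNU4-2, and not RNU5A-1, RNU11 and RNU12, beside 5.97%. With each list limited to 4458 peaks, 5 genes held a siRNaseH1 peak (8.00% of all genes), 1 a gained siREXO4 peak (7.13%), 0 a gained siRNaseH1 peak (6.49%) and 0 a peak in both knockdowns without one in siCtrl (3.43%), since fewer peaks enter. A 5 kb flank moved none of these counts by over 1.5 times. No paired analysis was possible because the files hold 1 merged list per transfection, and leaving out a replicate was not run for the same reason. The lowest fragment numbers at the peaks of the 10 genes were 10 and 11, at the siREXO4 summits of RNU5A-1 and RNU5B-1.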

Other observations

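The U7 and U6 genes below were counted among the other U snRNA genes above but not named there. RNU7-1, which encodes the U7 snRNA of histone mRNA processing, had no siCtrl peak and leading folds of 10.35 in siREXO4 and 11.11 in siRNaseH1. Its siREXO4 peak lay wholly in a flank, and 54 bp of the gene were covered in siRNaseH1. Of the 5 U6 genes, which like RNU6ATAC are transcribed by RNA polymerase III, 1 held a siCtrl peak, 2 a siREXO4 peak and 3 a siRNaseH1 peak. Among all annotated genes the shares were 5.92%, 16.4% and 19.0%. RNU6-2 had folds of 8.80 in siREXO4 and 8.37 in siRNaseH1, and RNU6-1 had no peak in any list. RNU6-9 had a peak in siCtrl (3.69) and siREXO4 (3.82) and none in siRNaseH1. The siREXO4 peaks of RNU6-2 and RNU6-9 lay wholly in a flank. RNU6-7 and RNU6-8 lie side by side and share 1 siRNaseH1 peak of fold 4.96, which covered 25 bp of RNU6-8 and did not overlap RNU6-7.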
